A study of Mus musculus with 3 samples.

Results

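The circadian clock genes examined here were the 10 genes *Per1*, *Per2*, *Per3*, *Cry1*, *Cry2*, *Arntl*, *Clock*, *Nr1d1*, *Nr1d2* and *Dbp*, chosen by symbol from the 32285 genes counted in a single-cell RNA sequencing (scRNAseq) study of mouse flexor digitorum longus (FDL) tendon. All 10 were found, each once, among them *Dbp* (ENSMUSG00000059824), *Per1* (ENSMUSG00000020893), *Per3* (ENSMUSG00000028957), *Nr1d1* (ENSMUSG00000020889), *Arntl* (ENSMUSG00000055116) and *Cry1* (ENSMUSG00000020038). The question put to the data was whether these genes shift together in every cell class of a library.

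In the molecular clock, ARNTL (also called BMAL1) and CLOCK bind E-box elements and switch on the *Per* and *Cry* genes, whose proteins then repress ARNTL and CLOCK, so that transcripts rise and fall over the day. The same activators drive *Nr1d1* and *Nr1d2*, which encode the REV-ERB repressors, and *Dbp*, which encodes an activator that binds D-box elements. REV-ERB proteins and their ROR rivals act on ROR elements, through which *Arntl*, *Clock* and *Cry1* are controlled, and *Arntl* transcripts peak in textbooks when those of *Dbp* are low. Tendon, like most peripheral tissues, is known to hold such a clock. The genes are therefore described as an E-box group of 6 (*Per1*, *Per2*, *Per3*, *Nr1d1*, *Nr1d2*, *Dbp*), a ROR-element group of 3 (*Arntl*, *Clock*, *Cry1*), and *Cry2*.

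The study had 3 libraries, 1 for each group, and each was made from 16 FDL tendons pooled from mice of both sexes. The 6 M WT mice (Scx-Cre-; DTR F/+) carried a silent diphtheria toxin receptor, lacked Cre, and received 5 injections of diphtheria toxin (DT). The 6 M DTR mice (Scx-Cre+; DTR F/+) received the same 5 injections and expressed the receptor in Scleraxis-lineage cells, since Cre was under the *Scx* promoter, so that DT killed those cells. The 21 M B6 mice were aged C57BL/6J mice without the alleles and without DT. The study's methods give harvest at 6 months for WT and DTR, whereas the labels give 3 months. WT tendons were digested for 2 h and the tendons of the other groups for 1.5 h. All procedures on the mice took place in the morning under a light and dark cycle, but the hour at which each library was collected is not given in the sources used here. Hour, genotype, digestion time (against WT) and, for 21 M B6, age, strain and toxin therefore cannot be told apart, and their parts in the results were not tested.

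Cells were gated by 6 markers per class: at least 3 had to have a UMI (unique molecular identifier, 1 captured transcript) in the cell and every other class had to have at least 2 markers fewer. The markers included *Tnmd*, *Fmod* and *Thbs4* for tenocyte-like, *Efemp1*, *Clec3b* and *Pi16* for epitenon-like, *C1qa*, *Pf4* and *Csf1r* for macrophage-like, *Cd3e* and *Cd3g* for T cell-like, and *Pecam1* and *Cdh5* for endothelial-like cells, and no clock gene. In the order WT, DTR and B6, which is kept throughout for 3 values side by side, this gave 5357, 2793 and 885 tenocyte-like cells, 951, 926 and 2404 epitenon-like cells, 528, 1081 and 482 macrophage-like cells, 122, 300 and 78 T cell-like cells, and 150, 146 and 140 endothelial-like cells. The gate left 12.3%, 15.4% and 14.2% of the 8357, 6554 and 4798 filtered cells without a class, and the mural-like, Schwann-like and satellite-like classes had under 50 cells in a library and were not compared. The epitenon-like cells of the younger libraries sat closest to the limit of the gate, which 36.1% of them in WT and 39.4% in DTR only just passed, compared with 16.5% in B6. Between pairs of libraries 61 to 76 barcodes were shared, counted over all deposited barcodes before filtering. Filtered cells had medians of 13008, 12328 and 12914 UMIs, so depth was close over whole libraries. Within classes it was less even, with medians of 12904, 12355 and 11017 UMIs in tenocyte-like and 16199, 13026 and 13707 in macrophage-like cells. *Scx* itself, the gene whose promoter drove Cre, stood at 91.1, 115 and 74.1 CPM in tenocyte-like cells, so the tenocyte-like cells left in 6 M DTR still held its transcript.

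Levels are given as CPM, the UMIs of a gene per 1000000 UMIs, both summed over the cells of a class. With 1 library for each group there was no replicate and no test, so the intervals are exact 95% intervals that cover counting error only. A ratio was called past the fold when CPM differed at least 1.5-fold, its interval excluded 1 and both libraries together held at least 20 UMIs. In 21 M B6 the median log2 ratio over all genes against 6 M WT was −0.30 in tenocyte-like, −0.25 in epitenon-like, −0.07 in macrophage-like, −0.27 in T cell-like and −0.18 in endothelial-like cells. Against that shift each ratio of 21 M B6 is to be read. In 6 M DTR against 6 M WT these medians lay between −0.06 and 0.07. The noncoding transcript *Gm42418*, which overlaps ribosomal RNA, took 50389 CPM of 21 M B6 tenocyte-like cells, compared with 13744 in 6 M WT and 15455 in 6 M DTR, and mitochondrial genes took 5.42% of their UMIs, compared with 2.84% and 2.95%.

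Promoters of members were examined because the groups above are named for the elements through which they are controlled. RefSeq (GRCm38.p6) gave 13 start sites for 9 of the members, all but *Per2*, and the 250 bases before each start were searched on both strands for the E-box CACGTG, the E′-box CACGTT, the D-box TTATGTAA and the ROR half-site AGGTCA. Of all 32851 start sites in the table, 6.02% had the E-box, 3.85% the E′-box, 0.819% the D-box and 14% the ROR half-site. Shown are the 3 windows that held an E-box or a D-box, at chr11:69098699-69098948 on the + strand for *Per1*, chr10:85185055-85185304 on the − strand for *Cry1* and chr4:151044666-151044915 on the − strand for *Per3*, each written 5′ to 3′ on the strand of the gene with the motifs in capitals.
Per1: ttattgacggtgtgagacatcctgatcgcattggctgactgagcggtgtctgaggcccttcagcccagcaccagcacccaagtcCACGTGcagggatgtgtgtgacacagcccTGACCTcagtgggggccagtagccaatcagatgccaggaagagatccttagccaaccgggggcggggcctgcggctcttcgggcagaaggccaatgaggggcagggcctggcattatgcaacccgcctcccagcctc
Cry1: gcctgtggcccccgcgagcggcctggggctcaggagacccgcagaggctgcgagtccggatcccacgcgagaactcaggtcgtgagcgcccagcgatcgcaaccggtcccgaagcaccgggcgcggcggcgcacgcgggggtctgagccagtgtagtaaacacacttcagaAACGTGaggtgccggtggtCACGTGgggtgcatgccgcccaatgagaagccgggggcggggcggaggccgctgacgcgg
Per3: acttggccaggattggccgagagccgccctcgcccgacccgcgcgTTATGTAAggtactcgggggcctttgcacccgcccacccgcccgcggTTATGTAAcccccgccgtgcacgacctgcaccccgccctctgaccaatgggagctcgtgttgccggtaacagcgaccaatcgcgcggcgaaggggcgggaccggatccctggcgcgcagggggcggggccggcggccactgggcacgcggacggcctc
*Per1* held the E-box 166 bases before its start and the ROR half-site, on the other strand, 137 bases before it. *Cry1* held the E-box at 60 bases and the E′-box, on the other strand, at 79 bases. In *Per3* the D-box, the element that DBP binds, occurred at 205 and again at 158 bases. The E′-box was also found in *Cry2* and *Nr1d1*, and the ROR half-site in *Nr1d2* and in 1 of 3 *Clock* windows. Of the 13 windows, 2 held the E-box, 3 the E′-box, 1 the D-box and 3 the ROR half-site. The matches followed the group names only in part. The E-box of *Per1*, the E′-box of *Nr1d1* and the ROR half-site of *Clock* went with them. The E-box was also found in *Cry1* of the ROR-element group, and the ROR half-site in *Per1* and *Nr1d2* of the E-box group. A match is a description of the letters in these windows and not a site of binding, and the windows of *Dbp* and *Arntl* held none of these letters.

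The clearest difference lay in tenocyte-like cells, the collagen-producing cells of tendon, where *Per1* and *Dbp* were highest in 6 M DTR and lowest in 21 M B6. *Dbp* had 5078, 4392 and 379 UMIs, which gave 70.5 (68.5 to 72.4), 120.0 (116 to 124) and 36.1 (32.6 to 39.9) CPM. *Per1*, a repressor of the clock that also responds quickly to outside signals, stood at 13.5 (12.7 to 14.4), 26.5 (24.9 to 28.2) and 7.72 (6.13 to 9.59) CPM. The intervals of the 3 libraries did not overlap for either gene. *Per3* showed the same order, with 24.5 (23.3 to 25.6), 33.5 (31.7 to 35.4) and 10.4 (8.53 to 12.52) CPM.

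*Per2* stood at 16.0 (15.1 to 16.9), 19.4 (18 to 20.8) and 9.05 (7.32 to 11.1) CPM in these cells, so it too was lowest in 21 M B6. *Nr1d1*, the REV-ERBα gene, had 12213, 5721 and 1029 UMIs, or 169 (166 to 172), 156 (152 to 160.3) and 98.0 (92.1 to 104) CPM, and here 6 M WT was the highest. *Nr1d2*, the REV-ERBβ gene, moved least of the E-box group, with 88.2 (86.0 to 90.4), 99.1 (95.9 to 102) and 80.5 (75.2 to 86.1) CPM. Thus 5 of 6 members of the group had their highest level in 6 M DTR, and all 6 had their lowest in 21 M B6. Under TMM scaling, which sets the typical gene equal between libraries, *Nr1d2* was not lowest there. Over all genes of tenocyte-like cells, 57.6% were above 6 M WT in 6 M DTR. In 21 M B6, 73.2% of all genes were below 6 M WT and 73.5% below 6 M DTR.

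Between the tenocyte-like cells of the 3 libraries, no member controlled through ROR elements differed past the fold. *Arntl* was at 27.5 (26.3 to 28.8), 26.3 (24.7 to 28) and 29.7 (26.5 to 33.2) CPM, intervals that overlapped. *Clock* was at 44.9, 49.4 and 42.4 CPM. *Cry1*, which encodes a late repressor of the cycle, was at 28.8, 23.5 and 24.5 CPM. Under the alternatives the log2 ratio of 6 M DTR to 6 M WT stayed between −0.37 and −0.27 for *Cry1* and between 0.06 and 0.23 for *Clock*. *Cry2* went with the E-box group in order, with 47.8 (46.2 to 49.5), 62.0 (59.5 to 64.6) and 35.7 (32.2 to 39.5) CPM.

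**Figure D1:**
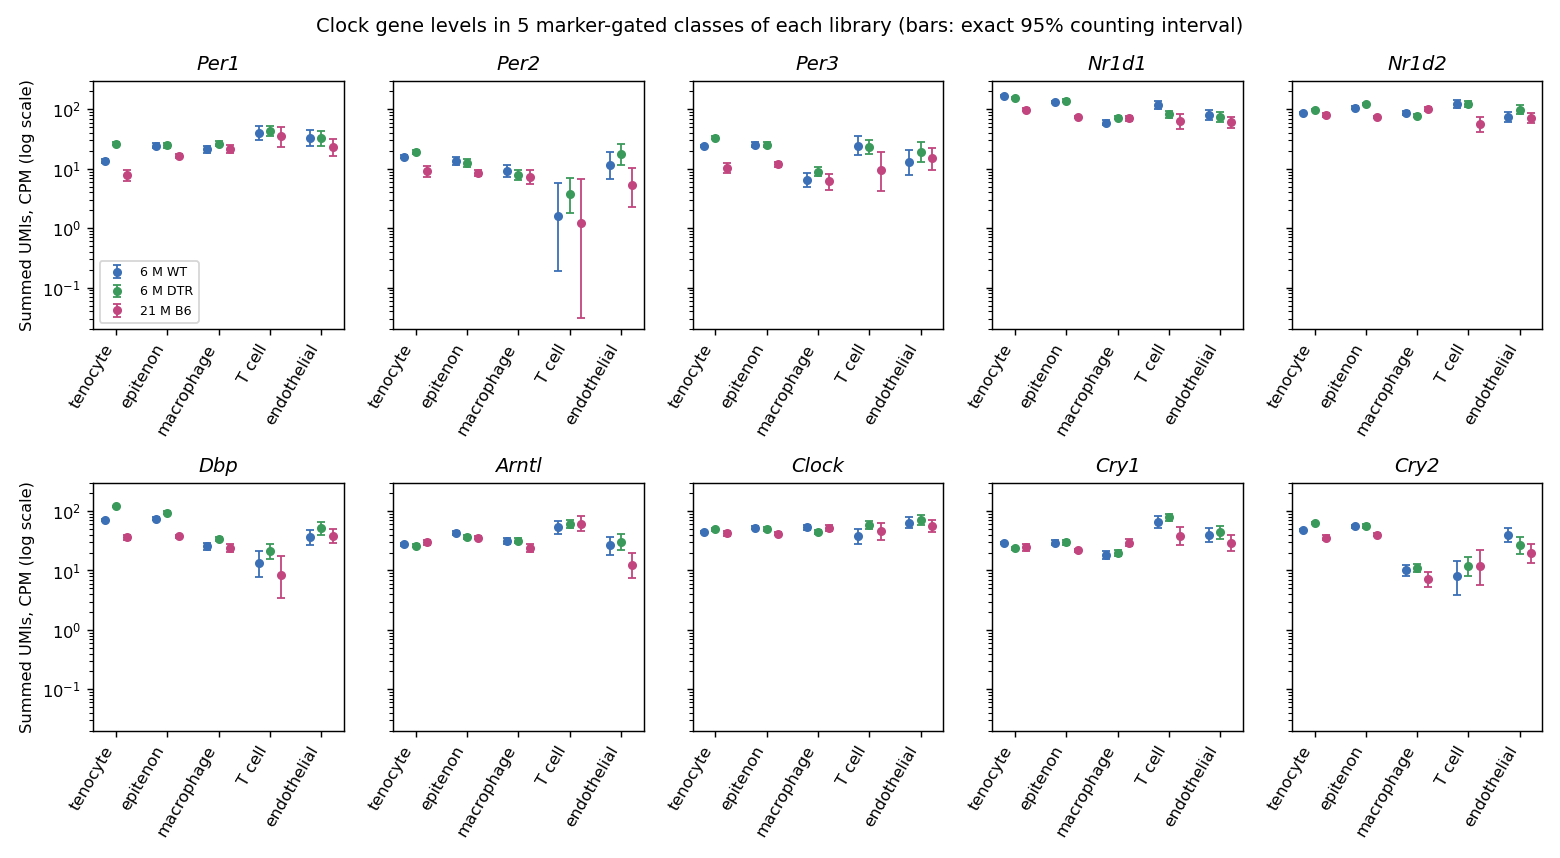
Levels of the 10 clock genes, as summed UMIs in CPM on a log axis, in 5 marker-gated classes (horizontal axis) of the 3 libraries. Points are single libraries and bars exact 95% counting intervals. In tenocyte-like cells *Dbp* was at 70.5, 120.0 and 36.1 CPM, whereas in macrophage-like cells it was at 25.4, 34.2 and 24.1 CPM.

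Set against 6 M WT, the tenocyte-like cells of 6 M DTR had 2 of 6 E-box members past the fold, both higher. These were *Per1*, with a ratio of 1.96 (1.8 to 2.15), and *Dbp*, with 1.70 (1.63 to 1.77). Over all genes 12.2% were higher past the fold in this comparison and 6.91% lower. The median log2 ratio of the E-box group was 0.37, compared with 0.07 over all genes, while *Arntl* was at −0.06 (−0.18 to 0.05). No member of the ROR-element group was past the fold, and *Cry2* had a log2 ratio of 0.37 (0.30 to 0.45), also within it.

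In the other classes of 6 M DTR no member of the E-box group was past the fold. Epitenon-like cells, fibroblasts of the sheet around the tendon, had 24.6 CPM of *Per1* in 6 M WT and 24.7 in 6 M DTR. *Per3* stood at 25.6 CPM in both, so for *Per1* and *Per3* values pooled over the sexes did not show the difference seen in tenocyte-like cells. *Dbp* was higher in 6 M DTR, with 74.1 (69.8 to 78.6) and 93.9 (89.0 to 99.0) CPM and a log2 ratio of 0.34 (0.23 to 0.46). *Nr1d2* stood at 107 and 124 CPM and *Nr1d1* at 132 and 141 CPM. The group median was 0.05 in epitenon-like, 0.31 in macrophage-like, 0.02 in T cell-like and 0.45 in endothelial-like cells. The last came from 16 to 109 UMIs for each gene in 6 M WT. The first joined a median of 0.41 in cells called female and −0.33 in cells called male. The shares of all genes past the fold were 3.59% higher and 6.01% lower in epitenon-like cells, 4.93% and 4.22% in macrophage-like cells, 4.88% and 3.48% in T cell-like cells, and 2.36% and 5.46% in endothelial-like cells. *Dbp* had a ratio above 1 in all 5 classes, with log2 values of 0.77, 0.34, 0.43, 0.64 and 0.48 in the order tenocyte-, epitenon-, macrophage-, T cell- and endothelial-like, of which the last 2 had intervals that held 0. *Nr1d1* was split, at −0.12, −0.51 and −0.10 in tenocyte-, T cell- and endothelial-like cells and 0.09 and 0.29 in epitenon- and macrophage-like cells. The only call outside tenocyte-like cells was *Clock* in T cell-like cells, with 38.2 (28.1 to 50.6) and 58.9 (50.0 to 69.0) CPM from 48 and 154 UMIs.

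The broader shift was in 21 M B6. In this library against 6 M WT, 5 of 6 E-box members of tenocyte-like cells were lower past the fold, compared with 17.3% of all genes. The ratios were 0.572 (0.450 to 0.718) for *Per1*, 0.567 (0.455 to 0.699) for *Per2*, 0.424 (0.347 to 0.515) for *Per3*, 0.578 (0.542 to 0.616) for *Nr1d1* and 0.512 (0.460 to 0.569) for *Dbp*. Their group median was −0.81, below the −0.30 of all genes, and *Arntl* stood at 0.11 (−0.07 to 0.28). When the libraries were scaled by TMM factors, which bring the median of all genes to −0.02, only *Per3* and *Dbp* remained past the fold, with 7.06% of all genes lower, and *Nr1d2* changed from −0.13 to 0.15. The group median was then −0.53 and *Arntl* was at 0.39. TMM scaling also changed the share of all calls in this comparison that were lower from 72.2% to 39.1%. With cells of at most 5% mitochondrial counts, which brings the libraries closer in that measure, the median was −1.06.

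Epitenon-like cells of 21 M B6, with at least 1090 UMIs in every library for *Nr1d1*, *Nr1d2* and *Dbp*, showed the same direction. *Dbp* was at 74.1, 93.9 and 37.8 (35.8 to 39.9) CPM, *Per3* at 25.6, 25.6 and 12 (10.9 to 13.2) CPM, and *Nr1d1* at 132, 141 and 75.2 (72.4 to 78.1) CPM. These 3 genes and *Per2* were lower past the fold than in 6 M WT, 4 of 6, compared with 13.1% of all genes. *Per1* and *Nr1d2* had log2 ratios of −0.57 (−0.76 to −0.38) and −0.53 (−0.62 to −0.43), just inside the fold. The group median was −0.75, while *Arntl*, *Clock*, *Cry1* and *Cry2* lay between −0.46 and −0.25, within the fold, compared with −0.25 for all genes. Under TMM scaling 2 of the 4 calls were kept, *Per3* and *Dbp*, the group median was −0.50, and 4.86% of all genes were lower, 33.9% of all calls compared with 71.5%.

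In macrophage-like cells, the resident phagocytes marked by complement C1q genes, lower E-box levels were not found past the fold. *Dbp* had 224, 514 and 168 UMIs, or 25.4 (22.2 to 29.0), 34.2 (31.3 to 37.3) and 24.1 (20.6 to 28) CPM. *Per1* stood at 21.2, 26.6 and 21.6 CPM. *Per2* had 82, 118 and 51 UMIs, or 9.31, 7.85 and 7.31 CPM. *Per3* had 57, 135 and 43 UMIs, or 6.47, 8.98 and 6.17 CPM. *Nr1d1* and *Nr1d2* were slightly higher in 21 M B6 than in 6 M WT, with 59.7 (54.7 to 65.1) and 70.4 (64.3 to 76.9) CPM for the first and 86.5 (80.5 to 92.9) and 103 (95.7 to 111) CPM for the second. No E-box member was past the fold, with 9.33% of all genes higher and 9.40% lower, and the group median was −0.02, compared with −0.07 for all genes. For *Dbp* the counts could have shown a change of the size found in tenocyte-like cells. The interval of its log2 ratio in macrophage-like cells, −0.38 to 0.22, does not reach −0.96. That interval covers counting error only, and *Per2* and *Per3* rested on fewer UMIs. The member past the fold was *Cry1*, at 18.2 (15.5 to 21.2), 19.6 (17.4 to 21.9) and 29.2 (25.4 to 33.5) CPM, a ratio of 1.61 (1.30 to 1.99) to 6 M WT. *Arntl* stood at 31.5 (27.9 to 35.4), 31.9 (29.1 to 34.9) and 24.1 (20.6 to 28) CPM, a log2 ratio of −0.39 (−0.67 to −0.10) to 6 M WT, within the fold. The 6 tenocyte markers together stood at 99.1, 76.8 and 56.5 CPM in these cells and at 14323, 15560 and 14213 CPM in tenocyte-like cells, a gap that the gate itself partly sets, and the part of RNA carried over from tenocytes was not tested.

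T cell-like cells were few in 21 M B6, but their *Nr1d1*, *Nr1d2* and *Per3* were lower past the fold than in 6 M WT, 3 of the 5 E-box members with enough UMIs, compared with 14.3% of all genes. *Nr1d1* had 149, 218 and 52 UMIs, or 118 (100.2 to 139), 83.4 (72.7 to 95.3) and 63.0 (47.0 to 82.6) CPM. *Nr1d2* had 122 (104 to 143), 124 (111 to 138) and 56.9 (41.8 to 75.7) CPM. *Per3* rested on 31, 61 and 8 UMIs. *Dbp* had 17, 55 and 7 UMIs, or 13.5, 21.1 and 8.48 CPM. It differed from 6 M WT by more than 1.5-fold but was not called, since its interval held 1. *Per1*, within the fold, stood at 40.5, 43.6 and 35.1 CPM. Under TMM scaling the log2 ratio of *Per1* in 21 M B6 to 6 M WT was 0.08. *Per2* had 2, 10 and 1 UMIs and is given as counts only. *Arntl* was at 53.3, 60.9 and 61.8 CPM in these cells, whereas *Cry1* was lower past the fold, with 66.0 (52.6 to 81.8), 78.5 (68.1 to 90) and 38.8 (26.5 to 54.7) CPM. The group median was −0.91, compared with −0.27 for all genes, and under TMM scaling it was −0.63 with *Nr1d1* and *Nr1d2* still past the fold. Haemoglobin genes stood at 886, 8966 and 18718 CPM in T cell-like cells, the highest of the 5 classes in 21 M B6, and their part in these values was not tested.

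Endothelial-like cells had a group median of −0.22, near the −0.18 of all genes, and no E-box member past the fold. *Dbp* was at 36.7 (27.2 to 48.3), 51.3 (40.2 to 64.3) and 38.3 (29.1 to 49.6) CPM. Here *Arntl* and *Cry2* were lower past the fold in 21 M B6, with 13.7% of all genes lower. *Arntl* had 36, 44 and 19 UMIs, or 26.4 (18.5 to 36.5), 30.5 (22.1 to 40.9) and 12.6 (7.56 to 19.6) CPM, and *Cry2* had 39.6, 27.0 and 19.8 CPM. Markers of mural cells, which wrap small vessels, stood at 2937 CPM in the endothelial-like cells of 21 M B6, compared with 921 in 6 M WT and 688 in 6 M DTR, while haemoglobin genes stood at 46.2, 2924 and 3852 CPM, and the part of either in these values was not tested.

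**Figure D2:**
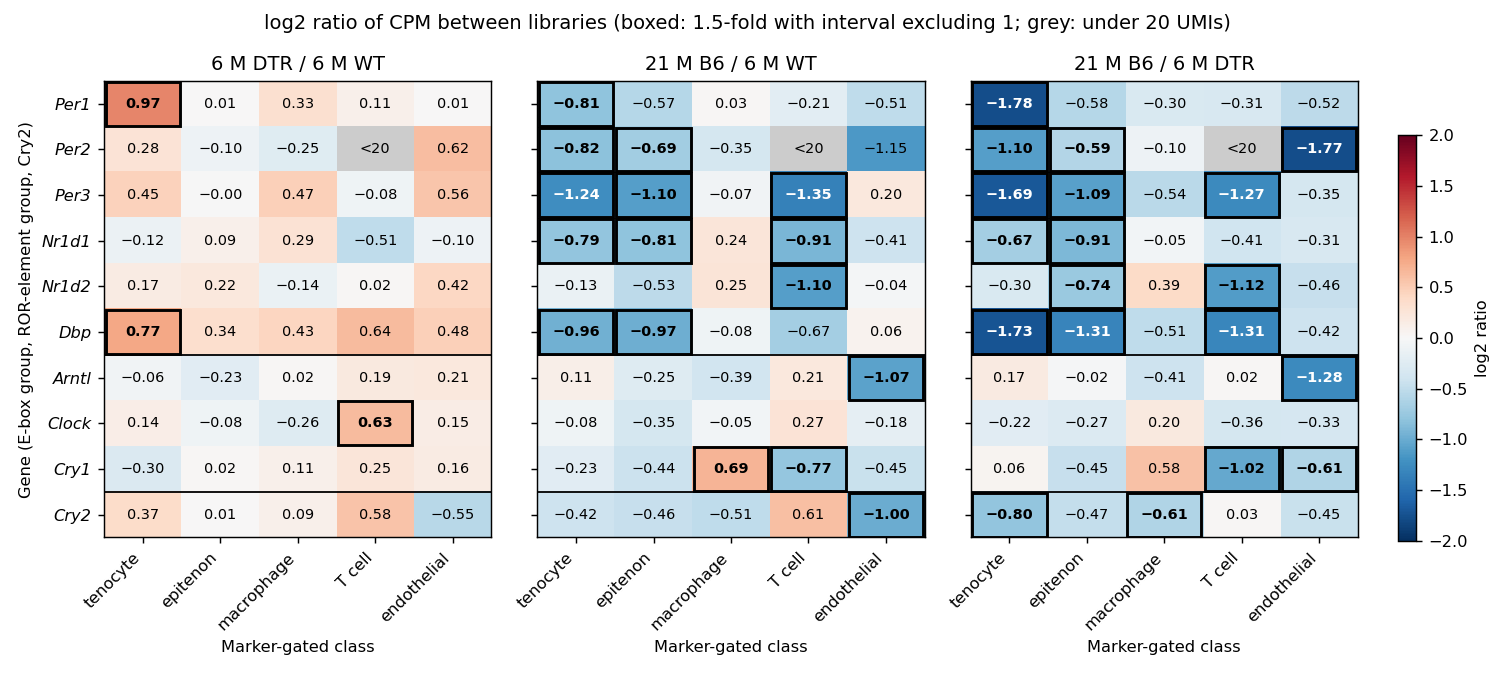
log2 ratios of CPM between libraries for the 10 clock genes (rows) in 5 marker-gated classes (columns), 1 panel for each comparison; boxed cells differ at least 1.5-fold with an interval that excludes 1, and grey cells have under 20 UMIs. In 21 M B6 / 6 M WT the tenocyte-like column has 5 boxed E-box genes, all negative, and the macrophage-like column has none.

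Against 6 M DTR, which was digested for the same 1.5 h, the tenocyte-like cells of 21 M B6 again had 5 of 6 E-box members lower past the fold, with 27.9% of all genes lower. *Per1* had a ratio of 0.291 (0.229 to 0.366), *Per3* of 0.310 (0.252 to 0.377) and *Dbp* of 0.301 (0.270 to 0.334). *Cry2* was the other member past the fold, at 0.576 (0.515 to 0.643), while *Arntl* had a log2 ratio of 0.17 (−0.01 to 0.36). In epitenon-like cells 5 of 6 were lower, with 16.5% of all genes, and *Dbp* was at 0.403 (0.373 to 0.434). The macrophage-like cells had none of 6 past the fold, with 9.78% of all genes higher and 9.25% lower, although *Dbp* and *Per3* had log2 ratios of −0.51 (−0.77 to −0.25) and −0.54 (−1.07 to −0.04). *Cry2*, outside the E-box group, was lower past the fold in macrophage-like cells, at −0.61 (−1.09 to −0.14). The T cell-like cells had 3 of 5 lower, *Per3*, *Nr1d2* and *Dbp*, with 16.2% of all genes. The endothelial-like cells had 1 of 6, *Per2*, with 11.7%. Also outside the E-box group, *Cry1* was lower past the fold in T cell-like cells, at 38.8 CPM compared with 78.5 in 6 M DTR. In endothelial-like cells *Arntl* (12.6 compared with 30.5 CPM) and *Cry1* (29.1 compared with 44.3 CPM) were lower past the fold. This comparison shares each of its libraries with 1 of the other comparisons.

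Across the 5 classes, the median log2 ratio of the E-box group in 21 M B6 against 6 M WT was below 0 in all 5. The median of all genes was also below 0 in all 5, from −0.30 to −0.07. The E-box values ran from −0.91 to −0.02, and in macrophage-like cells the sign turned under 5 alternatives, TMM scaling (0.05) among them. Those of endothelial-like (−0.22) and macrophage-like cells (−0.02) lay near the medians of all genes (−0.18 and −0.07). For 6 M DTR the medians of all 5 classes were above 0, from 0.02 to 0.45, of which those of epitenon-like and T cell-like cells lay within 0.05 of the median of all genes. Their sign turned in male cells for epitenon-like (−0.33) and endothelial-like cells (−0.04, compared with 0.97 in female cells). For T cell-like cells it turned under TMM scaling (−0.00063), and the lowest value under any alternative was −0.028. The median stayed above 0 under every alternative in tenocyte-like cells (0.25 to 0.41) and macrophage-like cells (0.10 to 0.43). The medians of all genes there were 0.07 and −0.01, and no E-box member of macrophage-like cells was past the fold. Against 6 M WT, lower E-box genes past the fold in 21 M B6 were therefore found in tenocyte-like, epitenon-like and T cell-like cells. None was past the fold in macrophage-like or endothelial-like cells of the same library. In endothelial-like cells the counts were low. There *Per2*, with 16 UMIs in 6 M WT and 8 in 21 M B6, was lower by more than 1.5-fold but its interval held 1. The genes were not the same in each class. Under TMM scaling *Per3* and *Dbp* stayed past the fold in tenocyte-like and epitenon-like cells, and *Nr1d1* and *Nr1d2* in T cell-like cells. Whether classes differ beyond the spread between libraries could not be tested with 1 library for each group.

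**Figure D3:**
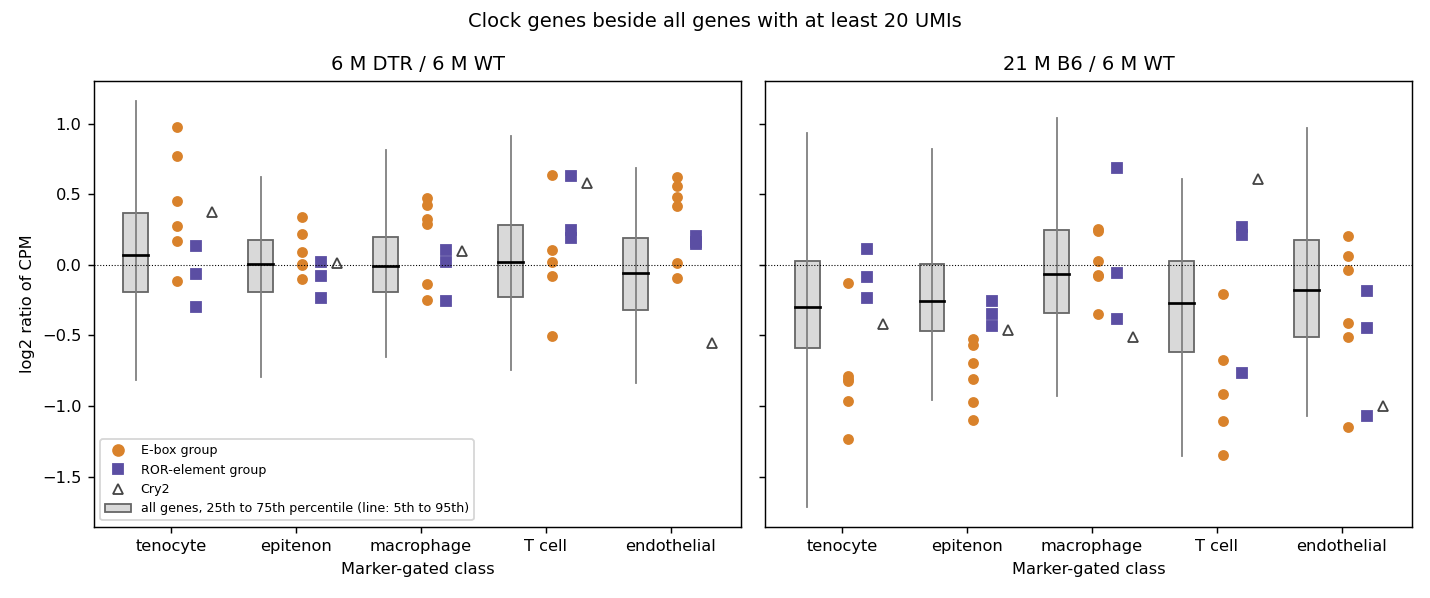
log2 ratios of CPM of the clock genes with at least 20 UMIs (orange circles, E-box group; purple squares, ROR-element group; open triangles, *Cry2*) beside all genes in 5 marker-gated classes, where the grey box spans the 25th to 75th and the line the 5th to 95th percentile. In 21 M B6 / 6 M WT the E-box medians were −0.81 in tenocyte-like and −0.02 in macrophage-like cells, compared with −0.30 and −0.07 for all genes.

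Ratios of 1 member to another within a library do not depend on how the libraries are scaled. For each *Arntl* UMI, tenocyte-like cells held 2.56 (2.43 to 2.70), 4.56 (4.25 to 4.89) and 1.21 (1.04 to 1.42) *Dbp* UMIs. Epitenon-like cells followed the same order, with 1.74 (1.57 to 1.92), 2.58 (2.33 to 2.86) and 1.06 (0.977 to 1.14). In macrophage-like cells the values were 0.809 (0.675 to 0.968), 1.07 (0.944 to 1.22) and 1.00 (0.803 to 1.25), so that 21 M B6 did not fall below 6 M WT. Endothelial-like cells had the reverse order for 21 M B6, with 1.39 (0.887 to 2.19), 1.68 (1.14 to 2.50) and 3.05 (1.79 to 5.43), where the *Arntl* count of 21 M B6 was 19 UMIs. *Nr1d1* per *Arntl* was 6.16, 5.93 and 3.30 in tenocyte-like cells and 1.90, 2.28 and 2.92 in macrophage-like cells, opposite directions for 21 M B6 against 6 M WT. In macrophage-like cells *Nr1d1* CPM was 1.18-fold that of 6 M WT and *Arntl* CPM 0.766-fold, so that the lower *Arntl* made the larger part of that difference.

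**Figure D4:**
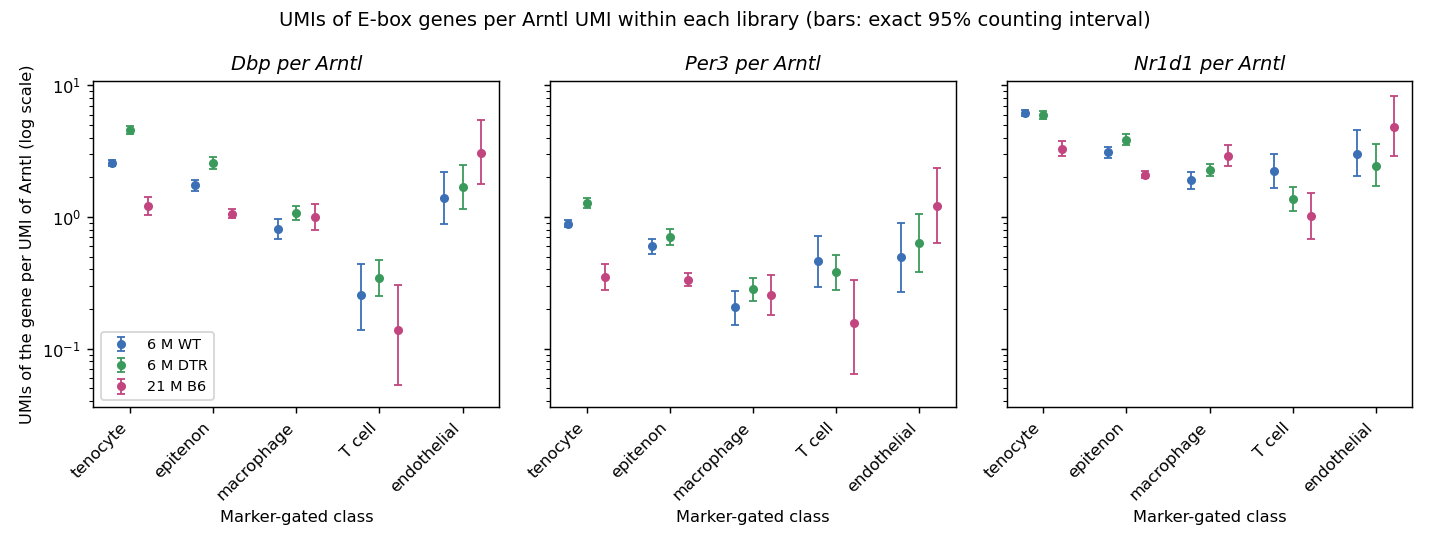
UMIs of *Dbp*, *Per3* and *Nr1d1* for each UMI of *Arntl* (log axis) in 5 marker-gated classes of each library, with exact 95% counting intervals. In tenocyte-like cells *Dbp* per *Arntl* was 2.56, 4.56 and 1.21 in the order WT, DTR and B6, and in macrophage-like cells 0.809, 1.07 and 1.00.

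The pools held mice of both sexes, and their balance differed between libraries: 3309 tenocyte-like cells of 6 M WT were called female, with *Xist* and no Y-linked UMI, and 1252 male, whereas 6 M DTR had 917 and 1315 and 21 M B6 had 332 and 302. Female and male cells of a library come from different mice, so each ratio was also taken within a sex. In tenocyte-like cells *Dbp* of 6 M DTR stood above 6 M WT among female cells, with a log2 ratio of 0.63, and among male cells, with 0.90. *Per1* was at 1.18 and 0.73. All 6 E-box members were lower in 21 M B6 in both sexes, with medians of −0.82 in female and −1.02 in male cells, compared with −0.28 and −0.29 for all genes. *Arntl* in 6 M DTR went up in female cells, to 0.35, and down in male cells, to −0.44.

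In epitenon-like cells the ratios of 6 M DTR to 6 M WT split by sex. All 6 E-box members were above 6 M WT in female cells, with a median of 0.41, and all 6 were below it in male cells, with a median of −0.33, although *Nr1d2* was at −0.00 there. The medians of all genes were 0.04 and −0.05. *Dbp* was at 0.92 in female and −0.30 in male cells, and *Per1* at 0.50 and −0.43. The pooled median of 0.05 thus joined opposite values. Within the 6 M DTR library itself, the log2 ratio of female to male epitenon-like cells was 0.92 (0.76 to 1.09) for *Dbp* and 0.88 (0.57 to 1.2) for *Per3*, whereas in tenocyte-like cells it was −0.29 (−0.39 to −0.19) and −0.37 (−0.56 to −0.18). In 6 M WT the log2 ratio of female to male epitenon-like cells was −0.40 for *Per1*, −0.31 for *Per2* and 0.11 for *Per3*. It was −0.28 for *Nr1d1*, −0.30 for *Nr1d2* and −0.29 for *Dbp*, so the split lay in part in 6 M WT. In the epitenon-like cells of 21 M B6 all 6 members were lower than in 6 M WT in both sexes, with medians of −0.64 and −0.99. Macrophage-like cells of 21 M B6 again lay near 0 in both, at −0.05 and 0.07.

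Within a library, the log2 ratios of female to male tenocyte-like cells for the 10 members ran from −0.40 to 0.01 in 6 M WT, from −0.43 to 0.48 in 6 M DTR and from −0.41 to 0.41 in 21 M B6. In epitenon-like cells of 6 M DTR the range was −0.44 to 0.92. These ratios carry any effect of sex and are no measure of the spread between mice, and how many mice of each sex entered a pool is not given in the sources used here.

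**Figure D5:**
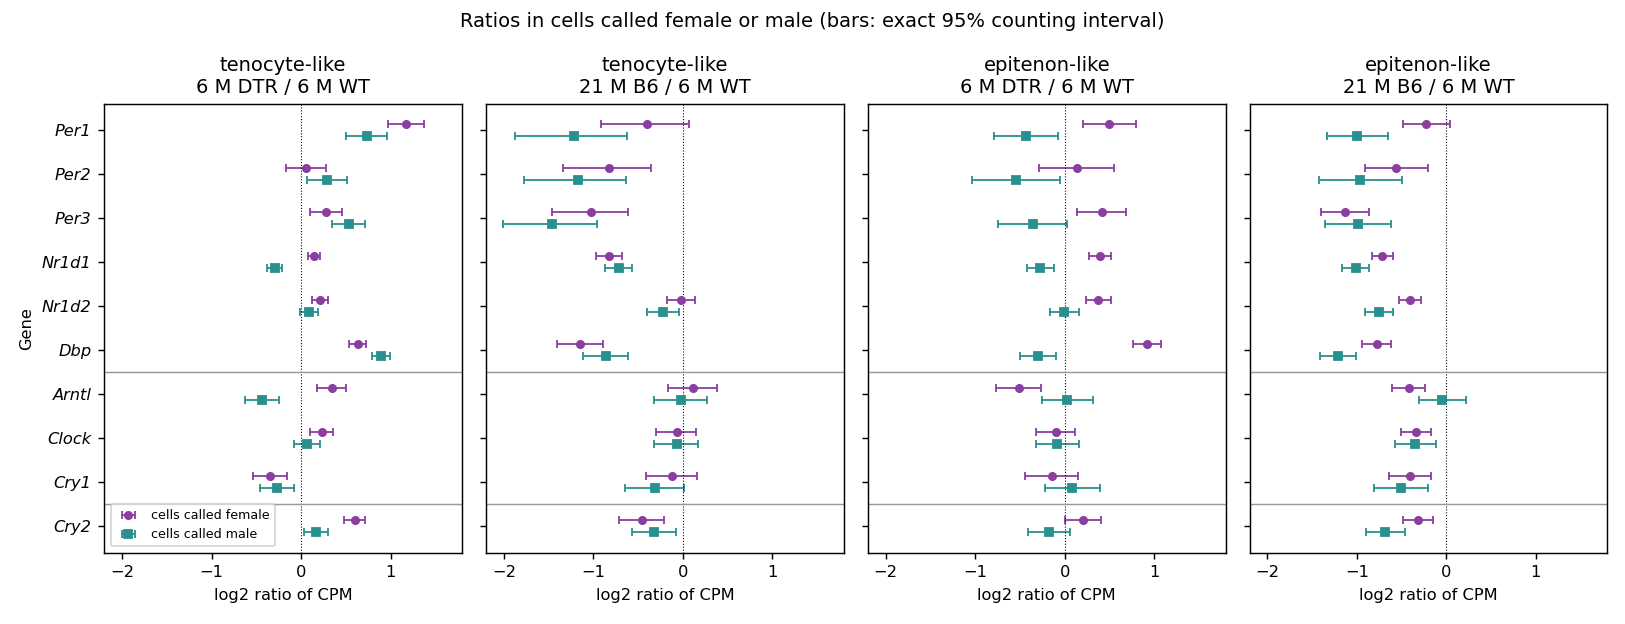
log2 ratios of CPM against 6 M WT (horizontal axis) for the 10 clock genes in cells called female (purple circles) and cells called male (teal squares), in tenocyte-like and epitenon-like cells, with exact 95% counting intervals. For *Dbp* in epitenon-like cells of 6 M DTR the female value was 0.92 and the male value −0.30, while both sexes of 21 M B6 lay below 0.

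Within 6 M WT, the members differed in where they were highest. *Per2* and *Nr1d1* had their highest levels in tenocyte-like cells, at 16.0 and 169 CPM, and both stood above the next class, epitenon-like cells at 13.6 and 132 CPM, by more than counting error. *Dbp* was highest in epitenon-like and tenocyte-like cells, 74.1 and 70.5 CPM, which did not differ beyond counting error, and fell to 36.7 in endothelial-like, 25.4 in macrophage-like and 13.5 CPM in T cell-like cells. *Cry2* was similarly low in macrophage-like and T cell-like cells, with 10.2 and 7.95 CPM, compared with 55.3 in epitenon-like cells. By contrast, *Per1*, *Nr1d2*, *Arntl* and *Cry1* were highest in T cell-like cells, with 40.5, 122, 53.3 and 66.0 CPM, of which only *Cry1* stood above the next class beyond counting error. *Clock* ran from 38.2 CPM in T cell-like to 63.8 CPM in endothelial-like cells. The place of *Per1* in tenocyte-like cells was not the same in all libraries: lowest of the 5 classes in WT and in B6, and at 26.5 CPM close to the 26.6 CPM of macrophage-like cells in 6 M DTR.

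A further 17 genes of the clock were read as a list: partners and regulators such as *Npas2*, *Rora*, *Nfil3*, *Bhlhe40* and *Ciart*, kinases and ligases that set the stability of PER and CRY proteins, and output genes such as *Tef*, *Hlf*, *Wee1* and *Nampt*. In tenocyte-like cells of 6 M DTR, 3 of 17 were higher past the fold than in 6 M WT, with a list median of 0.04, close to the 12.2% and the median of 0.07 over all genes. The higher genes were *Bhlhe41* (log2 ratio 1.34), *Bhlhe40* (0.77) and *Wee1* (0.68). *Bhlhe40* and *Bhlhe41* encode the DEC repressors, which compete for E-boxes. In 21 M B6, 4 of 17 were higher, with 6.65% of all genes higher. *Nfil3*, whose protein represses D-box genes and so acts against DBP, had 41.0, 38.6 and 104.7 CPM. *Nampt*, an enzyme of NAD synthesis, had 51.1, 44.8 and 90.7 CPM. *Bhlhe40* had 258, 441 and 539.5 CPM. The 4th was *Rorb*, which had at most 2.19 CPM in these cells of any library, and *Ciart* and *Csnk1e* were lower past the fold, with log2 ratios of −0.60 and −0.71 and with 17.3% of all genes lower.

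*Nfil3* and *Nampt* were also higher past the fold in epitenon-like cells of 21 M B6, with log2 ratios of 0.97 and 0.61, as was *Rorb*, 3 of 16 with 5.23% of all genes higher. *Bhlhe41*, *Ciart* and *Hlf* were lower, with 13.1% of all genes lower. Macrophage-like cells of 21 M B6 had 5 of 14 higher and none lower, with 9.33% of all genes higher and 9.40% lower. *Ciart*, a repressor of CLOCK and ARNTL, was at 11.2, 8.72 and 23.8 CPM, higher there and lower past the fold in the tenocyte-like, epitenon-like and T cell-like cells of the same library. *Rora*, the activator on ROR elements, was at 41.0, 39.7 and 71.8 CPM. *Nampt* was higher in this class too, at 0.64, whereas *Nfil3* was at −0.53. In T cell-like cells none of 12 was higher, with 3.04% of all genes, and in endothelial-like cells 1 of 13 was higher and 1 lower, with 6.40% and 13.7% of all genes.

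Lists of other inducible genes moved with the libraries as well, and their part in the clock gene values was not tested. Immediate early genes, the quick response to stress and handling, were higher past the fold in 6 of 11 cases in tenocyte-like cells of 6 M DTR, with a median of 0.78, and in 8 of 11 in those of 21 M B6, with a median of 0.95, where 12.2% and 6.65% of all genes were higher. In epitenon-like cells none of 11 passed in 6 M DTR and 8 of 11 did in 21 M B6, with a median of 0.75 and 5.23% of all genes higher. In macrophage-like cells of 21 M B6 7 of 11 were lower, with a median of −0.69 and 9.40% of all genes lower. Heat shock genes were higher past the fold in 8 of 8 cases in the tenocyte-like and epitenon-like cells of 21 M B6, with medians of 1.5 and 1.7, and in 6 of 8 macrophage-like, 6 of 8 endothelial-like and 2 of 8 T cell-like cases, where 9.33%, 6.40% and 3.04% of all genes were higher. In 6 M DTR none of 8 passed in tenocyte-like cells. Glucocorticoid-induced genes, which respond to a hormone with a daily rhythm, were mixed, with 1 of 8 higher and 1 lower in tenocyte-like cells of 6 M DTR, and 2 higher and 1 lower in those of 21 M B6. Over all genes 12.2% were higher and 6.91% lower in the first comparison and 6.65% and 17.3% in the second. Outside tenocyte-like cells too, single genes of the list went both ways. *Mt2* of 6 M DTR was lower past the fold in every class but endothelial-like. *Sgk1* was higher in tenocyte-, epitenon- and macrophage-like cells. In 21 M B6 *Mt2* and *Cebpd* were higher past the fold in every class but T cell-like, where *Mt2* was lower.

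Of 7 housekeeping genes none passed in tenocyte-like cells of 6 M DTR and 1, *Pgk1* at −0.82, lower in those of 21 M B6, with 17.3% of all genes lower, with medians of −0.05 and −0.17. Haemoglobin genes, a sign of RNA from red blood cells, stood at 1176, 4834 and 1153 CPM in tenocyte-like cells and muscle fibre genes at 23.8, 63.8 and 96 CPM. In tenocyte-like cells the epitenon markers, which the gate also used, stood at 1008, 732 and 1106 CPM, compared with 4711, 4639.7 and 4314.5 CPM in epitenon-like cells, and the macrophage markers at 16.6, 31.4 and 21.8 CPM. The part of any of these in the clock gene values was not tested.

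The genes whose levels followed those of a member most closely were named from log2 CPM centred within each class, over 15 points, 5 classes in 3 libraries. Among 3392 genes with a mean of at least 20 CPM in each class, *Dbp* was followed by *Rsbn1l* (Pearson r 0.98), *Mesd* (0.96), *Cenpb* (0.96), *Ramac* (0.95) and *Mllt10* (0.95). Of the members, *Per3* (0.94) and *Per1* (0.86) came closest to *Dbp*, *Nr1d1* had 0.72 and *Arntl* 0.08. Among the 3392 genes *Nr1d1* ranked 723, *Nr1d2* 843 and *Arntl* 2552. *Per1* and *Per3* were not among those genes and had no rank. The genes most like *Arntl* were *Gpat4* (0.91), *Znrf2* (0.88), *Dnaja2* (0.88), *Dars* (0.88) and *Pank3* (0.88). The points of a library share its depth and handling, so these values are descriptions.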

How the data were processed

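FDL tendon cells were profiled by droplet scRNAseq (10x Genomics 3′ chemistry), 1 library per group. The authors made the count matrices with Cell Ranger, and the deposited values are raw UMI counts per gene and cell (6.0.1 per the file headers, 2.1.1 in the submitters' processing notes). The genome build is not given in the sources used here.

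The study's own limits were applied to cells (1000 to 5000 genes detected, mitochondrial share no higher than 10%). No doublet caller was run; the requirement of a marker lead of 2 and an alternative without the 5% of cells with the most UMIs stood in for it. Counts were summed per class and library and scaled to total UMIs. Ratios had exact binomial intervals, and the calculation was run on simulated counts with known folds. Those counts held counting error only, so the spread between cells, mice or libraries was not tested. No p-value was computed.

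Named genes were the members, the members past the fold first, with the 5 genes most like *Dbp* and *Arntl*. The 7 lists were other clock genes, immediate early, heat shock, glucocorticoid-induced, housekeeping, haemoglobin and muscle fibre genes; 1 gene of the first list is not reported here. Members and lists were chosen with earlier results of these data known. In all, 12 alternatives were run (Python 3.11.15, numpy 2.4.6, scipy 1.17.1, pandas 2.3.3, R 4.3.3, TMM factors from edgeR 4.0.16).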

Additional observations from a re-analysis of the deposited data

Results flagged for a closer look

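*Cry1* went opposite ways in different cell classes of the aged library. Against 6 M WT its log2 ratio in 21 M B6 was 0.69 (0.38 to 0.99) in macrophage-like cells and −0.77 (−1.40 to −0.16) in T cell-like cells, both past the fold, the latter from 83 and 32 UMIs. The T cell-like value was inside the fold under TMM scaling. In epitenon-like cells the ratio of the E-box group in 6 M DTR to 6 M WT went opposite ways by sex. Its median log2 value was 0.41 in cells called female and −0.33 in cells called male, and part of that split lay in 6 M WT. Neither difference was tested, since each group was 1 library.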

How the results depend on the processing

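No paired analysis was possible because each group was 1 library. No value past the fold changed sign under the 12 alternatives. For 6 M DTR against 6 M WT, the E-box median of tenocyte-like cells was 0.25 in cells called female, and *Arntl* there was 0.35 in female and −0.44 in male cells. In epitenon-like cells the E-box median was 0.41 in female and −0.33 in male cells, and *Arntl* was −0.51 and 0.026. The number of classes with the sign of tenocyte-like cells was 3 in male cells, compared with 5. For 21 M B6 against 6 M WT, the E-box median of tenocyte-like cells was −1.06 with a mitochondrial limit of 5% and −0.53 under TMM scaling, where *Arntl* was 0.39. In epitenon-like cells the E-box median was −0.50 under TMM scaling and −0.99 in male cells, and *Arntl* was 0.0025 under TMM scaling, −0.42 in female and −0.044 in male cells. The cause of these moves was not tested, beyond the shift of all genes that TMM scaling removes by construction. In the other 152 cases, the E-box median and *Arntl* in tenocyte-, epitenon- and macrophage-like cells against 6 M WT moved by less than their counting error, or the number of classes by less than 1.5-fold. All other member ratios, medians and numbers did so in 1616 cases and did not in 156.

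TMM scaling lowered the number of E-box members of 21 M B6 past the fold against 6 M WT from 5 to 2 in tenocyte-like, from 4 to 2 in epitenon-like and from 3 to 2 in T cell-like cells. Against 6 M DTR it went from 5 to 4, from 5 to 3 and from 3 to 1. The share of all calls of 21 M B6 against 6 M WT that were lower went from 82.4% to 44.5% in T cell-like, from 68.1% to 42.5% in endothelial-like and from 50.2% to 39.8% in macrophage-like cells. Against 6 M DTR it went from 77.5% to 43.2% in tenocyte-like, from 66.3% to 31.2% in epitenon-like, from 84.4% to 47.8% in T cell-like and from 57.4% to 42.2% in endothelial-like cells, and for endothelial-like cells of 6 M DTR against 6 M WT from 69.9% to 56.4%. Depth limited the T cell-like and endothelial-like classes, where single members had as few as 1 and 8 UMIs in 21 M B6.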
